A study of Homo sapiens with 8 samples.

Results

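The ABC export pumps of hepatocytes are a set of 10 genes, ABCB1, ABCB4, ABCB11, ABCC1, ABCC2, ABCC3, ABCC4, ABCC6, ABCG2 and ABCB6, taken by gene symbol from 49733 gene IDs in HepG2 RNA-seq data. The set is defined by gene name and not by a measured value, but it was chosen with earlier results of these data known. HepG2 is a human hepatocellular carcinoma line, so every library comes from the same tumour-derived cells and not from liver tissue. Poly-A RNA was sequenced from 4 groups of 2 libraries each, with the libraries of each group made in independent experiments. BaP 12 h and BaP 24 h were exposed to 2 µM benzo[a]pyrene (BaP) with 0.5% DMSO. The groups vehicle 12 h and vehicle 24 h received 0.5% DMSO alone for the same times. BaP is a combustion product of the polycyclic aromatic hydrocarbon class, a ligand of the aryl hydrocarbon receptor (AHR), and its oxidised metabolites form DNA adducts. Each comparison sets BaP against vehicle of the same time, with different vehicle libraries at 12 h and 24 h.

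ABC transporters use ATP to move molecules across membranes. In hepatocytes one group of pumps sits in the canalicular membrane and secretes bile salts, phospholipid, conjugated bilirubin and drug conjugates into bile, while another sits in the basolateral membrane and returns conjugates to blood. Export of glutathione, sulfate and glucuronide conjugates is often called phase III of xenobiotic metabolism, after oxidation and conjugation. Several pump genes are known targets of AHR, of the oxidative stress factor NFE2L2, or of nuclear receptors such as NR1I2 (PXR), NR1I3 (CAR) and NR1H4 (FXR).

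Promoter windows from RefSeq (GRCh38.p14) are shown for the canalicular pumps ABCC2, ABCB1 and ABCG2 and for the mitochondrial pump ABCB6, because these genes carry most of the rises described here. Each window holds 250 bases before and 50 after an annotated start and is written along the gene's strand. Capitals mark the AHR core GCGTG, read on either strand (CACGC is its reverse complement), or the antioxidant response element core TGACNNNGC, and these motifs do not overlap here. The windows are chr10:99782390-99782689 (plus strand) for ABCC2, chr2:219218909-219219208 (minus strand) for ABCB6, chr7:87600835-87601134 (minus strand) for ABCB1 and chr4:88158810-88159109 (minus strand) for ABCG2.
ABCC2: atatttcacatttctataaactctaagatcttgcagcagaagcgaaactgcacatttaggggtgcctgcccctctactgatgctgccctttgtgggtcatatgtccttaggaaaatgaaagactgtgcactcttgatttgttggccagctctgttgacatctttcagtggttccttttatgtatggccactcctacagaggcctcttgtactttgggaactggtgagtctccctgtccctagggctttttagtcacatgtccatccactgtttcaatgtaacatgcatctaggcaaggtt
ABCB6: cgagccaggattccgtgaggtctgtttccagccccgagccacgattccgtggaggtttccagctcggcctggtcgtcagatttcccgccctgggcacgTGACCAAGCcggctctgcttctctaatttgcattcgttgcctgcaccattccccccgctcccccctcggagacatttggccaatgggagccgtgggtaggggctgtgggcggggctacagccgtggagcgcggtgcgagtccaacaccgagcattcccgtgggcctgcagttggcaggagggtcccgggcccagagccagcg
ABCB1: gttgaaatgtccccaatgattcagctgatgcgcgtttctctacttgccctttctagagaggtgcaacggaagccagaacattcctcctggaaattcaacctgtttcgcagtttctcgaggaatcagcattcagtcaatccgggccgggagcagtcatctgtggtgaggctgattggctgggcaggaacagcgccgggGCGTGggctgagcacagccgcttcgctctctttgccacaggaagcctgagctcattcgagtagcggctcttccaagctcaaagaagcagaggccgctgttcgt
ABCG2: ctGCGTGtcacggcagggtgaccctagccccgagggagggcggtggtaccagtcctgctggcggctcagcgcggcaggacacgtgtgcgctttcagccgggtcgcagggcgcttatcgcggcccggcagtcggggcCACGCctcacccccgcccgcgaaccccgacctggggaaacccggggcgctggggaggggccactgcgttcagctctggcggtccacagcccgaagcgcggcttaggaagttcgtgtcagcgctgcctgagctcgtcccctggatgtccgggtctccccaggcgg

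The ABCB6 window holds 1 antioxidant response element core, 152 bases upstream of the start. The table lists 2 windows for ABCB1 and 5 for ABCG2, and the window shown for each was picked after its motifs were known. The ABCB1 window shown holds 1 AHR core, 53 bases upstream, and the other ABCB1 window holds neither motif. The ABCG2 window shown holds 2 AHR cores, at 248 and 114 bases upstream. Of the other 4 ABCG2 windows, 2 overlap it and hold 2 AHR cores each. In 1 of these windows the cores are the same sites as in the window shown. Of the rest, 1 holds an antioxidant response element core at its start, and 1 holds neither. The ABCC2 window holds neither motif. Of 35116 such windows in the table, 36.5% hold an AHR core and 13.3% an antioxidant response element core on either strand, so the motifs are common. The table has windows for 7 of the 10 pumps, 13 windows in all. The ABCC4 window holds 3 AHR cores and 1 antioxidant response element core, and the windows of ABCC6 and ABCB11 hold neither. A match describes letters in a window and does not show that a factor binds there.

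The deposited estimated counts per library summed to between 2592272 and 16533490. The lowest total was that of BaP 24 h replicate 1, and libraries of a group correlated at r of 0.974 to 0.992 across 7299 genes. Exposure was visible in CYP1A1, the AHR target that oxidises BaP, with a log2 fold change of 7.66 ± 0.24 at 12 h and 7.74 ± 0.28 at 24 h. The quinone reductase gene NQO1, an NFE2L2 target, rose by 1.33 ± 0.15 and 1.55 ± 0.15 on the log2 scale, and the p53 target CDKN1A by 2.02 ± 0.15 and 1.87 ± 0.15 (n = 2 libraries per group, edgeR). Of 11 hepatocyte markers, 10 matched an ID and all 10 were expressed. Their summed level was 23184 to 24571 CPM (depth-scaled counts) in BaP 12 h against 29804 to 31630 CPM in vehicle 12 h, and 27423 to 32323 CPM in BaP 24 h against 36315 to 41479 CPM in vehicle 24 h. Taken singly, 1 of the 10 markers was called lower at each time, as given with the marker genes below. The part of this lower summed marker level in the pump results was not tested. Of 11 markers of other liver cells, 10 matched an ID and 3 were expressed enough to test. Of these 3, 33.3% were called at 12 h and 66.7% at 24 h, against 8.25% and 5.30% of all genes tested. CD14 rose at 12 h (1.04 ± 0.31) and 24 h (1.54 ± 0.32), and CD68 rose at 24 h (0.56 ± 0.13). COL1A1 was not called. DCN of fibroblasts and CD163 of macrophages had 0 counts in all 8 libraries, and the other 5 had too few counts to test. The summed level of the list was 56.8 to 69.5 CPM in BaP 12 h against 58.1 to 85.4 CPM in vehicle 12 h, and 66.0 to 67.2 CPM in BaP 24 h against 49.3 to 68.0 CPM in vehicle 24 h, so the groups overlapped at both times. The part of these genes in the pump results was not tested. In bulk RNA, fewer cells with a transcript and less of it per cell cannot be told apart.

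At 12 h, 4 of the 9 pumps with enough counts to test rose with BaP, namely ABCC2, ABCG2, ABCB6 and ABCB1. ABCC6 fell, and ABCB4, ABCC1, ABCC3 and ABCC4 were not called. At 24 h, 4 rose, namely ABCG2, ABCC3, ABCB6 and ABCC2. ABCC6 again fell, and ABCB1, ABCB4, ABCC1 and ABCC4 were not called. ABCB11 had no counts and was not tested. A gene was called when its p from edgeR's quasi-likelihood test, adjusted by Benjamini and Hochberg over all 14746 genes tested, was under 0.05. Of those genes 8.25% were called at 12 h (3.41% higher, 4.84% lower) and 5.30% at 24 h (3.11% higher, 2.20% lower). The median log2 fold change of the 9 pumps was 0.25 at 12 h and 0.44 at 24 h, against 0.02 and 0.01 over all genes tested. Both BaP libraries lay above both vehicle libraries for 5 pumps at 12 h and 6 at 24 h, and below them for 3 pumps at 12 h and 1 at 24 h. Over all genes tested these shares were 25.4% above and 23.9% below at 12 h, and 23.2% above and 24.0% below at 24 h. The choice of depth, test and library moved several of these calls, as given for each pump. The pumps were chosen with earlier results of these data known, so the contrasts with all genes are descriptive.

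**Figure D1:**
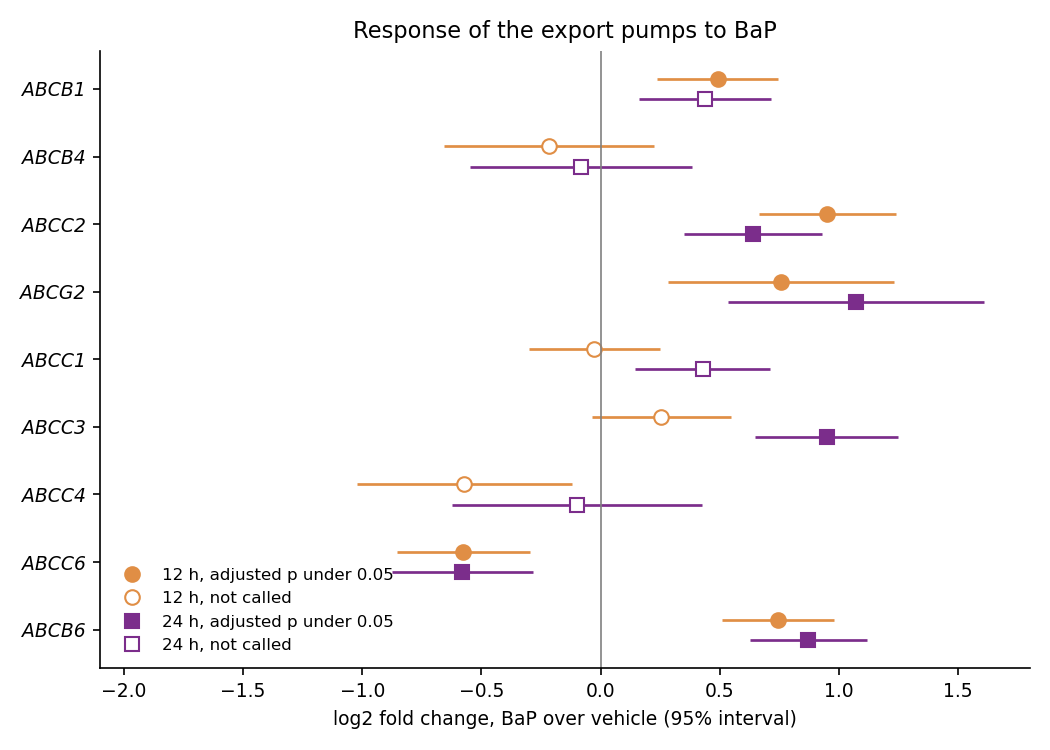
Log2 fold change of each tested pump, BaP over vehicle, at 12 h (circles) and 24 h (squares) with 95% intervals from edgeR, filled where the adjusted p was under 0.05. The intervals of ABCC2, ABCG2, ABCB6 and ABCB1 lie above 0 at both times and those of ABCC6 below 0. ABCB1 is filled at 12 h alone and ABCC3 at 24 h alone.

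**Figure D2:**
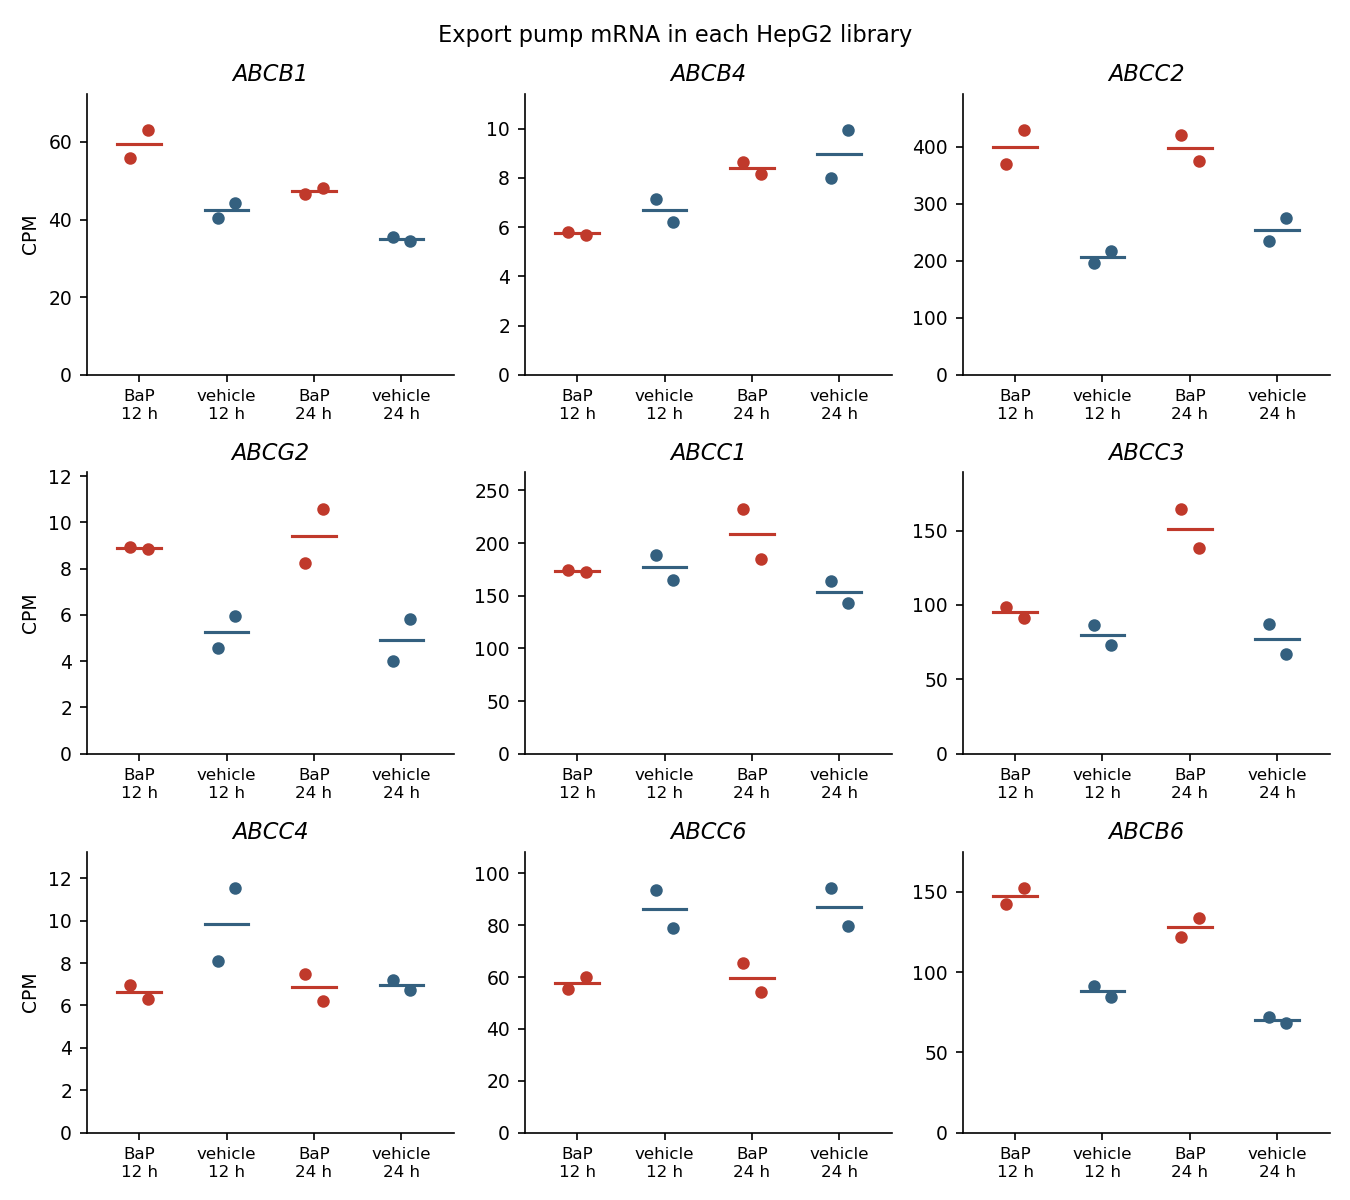
Level of each tested pump in every library in CPM, linear axes from 0, with points for libraries and a bar for the mean of 2. The BaP points of ABCC2, ABCG2, ABCB6 and ABCB1 lie above the vehicle points of the same time, and those of ABCC6 lie below them.

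ABCC2, also called MRP2, is the canalicular pump for conjugated bilirubin, glutathione conjugates and other organic anions. Its level was 370 and 429 CPM in BaP 12 h against 197 and 217 CPM in vehicle 12 h, and 421 and 375 CPM in BaP 24 h against 235 and 275 CPM in vehicle 24 h. The groups did not overlap at either time, and every BaP library lay above every vehicle library of both times. The rise was 0.95 ± 0.14 (log2 ± SE, n = 2 libraries per group) at 12 h (edgeR adjusted p = 0.00024) and 0.64 ± 0.14 at 24 h (edgeR adjusted p = 0.012). The call at 12 h stood in all 11 alternative analyses, with log2 fold changes of 0.82 to 1.05. The call at 24 h was lost without vehicle 24 h replicate 1 (log2 0.53, edgeR adjusted p = 0.23) and without vehicle 24 h replicate 2 (0.76, adjusted p = 0.052). It was also lost when the 4 libraries of 24 h were fitted alone (adjusted p = 0.061). Transcript ENST00000370449 held 99.8% of the ABCC2 counts, so gene and transcript levels were almost the same quantity.

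ABCB1, or P-glycoprotein, pumps hydrophobic drugs into bile and is the classic multidrug resistance transporter. Its level was 55.8 and 63.0 CPM in BaP 12 h against 40.4 and 44.3 CPM in vehicle 12 h, and 46.5 and 48.0 CPM in BaP 24 h against 35.5 and 34.5 CPM in vehicle 24 h. The BaP libraries lay above the vehicle libraries at both times. The rise at 12 h was 0.49 ± 0.12 on the log2 scale (edgeR adjusted p = 0.016). At 24 h the log2 fold change was 0.44 ± 0.13 (95% interval 0.16 to 0.71, edgeR adjusted p = 0.066), which did not pass. The 12 h call was lost without BaP 12 h replicate 1 (log2 0.57, edgeR adjusted p = 0.060), without BaP 12 h replicate 2 (0.38, adjusted p = 0.26) and without vehicle 12 h replicate 1 (0.43, adjusted p = 0.11). It was also lost at the depth of the shallowest library (adjusted p = 0.14), while the 24 h value passed without that library, BaP 24 h replicate 1 (log2 0.45, edgeR adjusted p = 0.039).

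ABCG2, or BCRP, exports sulfate conjugates, urate, porphyrins and many carcinogens across the canalicular membrane. It was a low transcript, at 8.95 and 8.85 CPM in BaP 12 h against 4.57 and 5.94 CPM in vehicle 12 h, and at 8.25 and 10.6 CPM in BaP 24 h against 3.99 and 5.81 CPM in vehicle 24 h. The groups did not overlap at either time. The rise was 0.76 ± 0.22 on the log2 scale at 12 h (edgeR adjusted p = 0.047) and 1.07 ± 0.25 at 24 h (adjusted p = 0.022), the largest fold change of any pump at 24 h. These calls rest on 597 estimated counts over all 8 libraries. DESeq2's Wald test did not call it (adjusted p = 0.24 at 12 h and 0.11 at 24 h). At 12 h the edgeR call was lost without BaP 12 h replicate 1 (log2 0.75, adjusted p = 0.23), BaP 12 h replicate 2 (0.75, 0.22), vehicle 12 h replicate 1 (0.59, 0.23) or vehicle 12 h replicate 2 (0.94, 0.053). At 24 h it was lost without BaP 24 h replicate 2 (log2 0.81, edgeR adjusted p = 0.39) and without vehicle 24 h replicate 1 (0.76, adjusted p = 0.34), and in a fit to the 4 libraries of that time (adjusted p = 0.059). At the depth of the shallowest library ABCG2 was called at neither time, with log2 0.87 at 12 h and 0.68 at 24 h. ENST00000237612 held 97.4% of its counts.

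ABCB4, or MDR3, flips phosphatidylcholine into bile. Its level was 5.81 and 5.70 CPM in BaP 12 h against 7.16 and 6.22 CPM in vehicle 12 h, and 8.63 and 8.16 CPM in BaP 24 h against 7.98 and 9.94 CPM in vehicle 24 h. The BaP libraries lay below the vehicle libraries at 12 h and between them at 24 h. The log2 fold change was -0.22 ± 0.21 at 12 h (95% interval -0.66 to 0.22, edgeR adjusted p = 0.65) and -0.08 ± 0.22 at 24 h (-0.55 to 0.38, adjusted p = 0.89). ABCB4 and ABCB1 lie side by side and are close in sequence, and reads that match both were divided between them by the authors' estimation, so both values carry that uncertainty.

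ABCB11, the bile salt export pump, had 0 counts in all 8 libraries. Over the summed counts of all libraries, a count of 0 allows up to 3 counts, or 0.0354 CPM. In BaP 24 h replicate 1, the shallowest library, the same limit is 1.16 CPM. These limits cover counting error only. Transcripts of the bile salt importer SLC10A1 (12 counts in all), of the uptake carriers SLCO1B1 and SLCO1B3 (0 counts) and of CYP7A1, the rate-limiting enzyme of bile acid synthesis (6 counts), were also too few to test.

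ABCC3, or MRP3, is a basolateral pump that returns glucuronides and bile salts to blood. Its level was 98.9 and 91.4 CPM in BaP 12 h against 86.3 and 73.3 CPM in vehicle 12 h, and 164 and 138 CPM in BaP 24 h against 86.9 and 67.3 CPM in vehicle 24 h. The groups did not overlap at either time, but the gap was narrow at 12 h. The log2 fold change was 0.25 ± 0.14 at 12 h (95% interval -0.04 to 0.55, edgeR adjusted p = 0.34). At 24 h ABCC3 rose by 0.95 ± 0.14 (edgeR adjusted p = 0.000865), a call that stood in all 11 alternatives with log2 fold changes of 0.79 to 1.16. The difference between the times, tested as an interaction, was 0.69 ± 0.20 (95% interval 0.28 to 1.11, edgeR adjusted p = 0.18). It passed when no filter on low counts was used (0.69, edgeR adjusted p = 0.028). The ABCC3 counts were spread over transcripts. ENST00000505699 and ENST00000502426, both annotated as nonsense-mediated decay, held 24.9% and 16.2%. The protein-coding ENST00000285238 held 42.3% and 13.8% in the BaP 24 h libraries against 31.4% and 37.4% in vehicle 24 h.

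ABCC1, or MRP1, exports glutathione conjugates and leukotrienes and is found in most cells, with little in healthy hepatocytes. Its level was 175 and 173 CPM in BaP 12 h against 189 and 165 CPM in vehicle 12 h, and 232 and 185 CPM in BaP 24 h against 164 and 143 CPM in vehicle 24 h. The groups overlapped at 12 h and did not overlap at 24 h. The log2 fold change was -0.03 ± 0.13 at 12 h (95% interval -0.30 to 0.25, edgeR adjusted p = 0.95) and 0.43 ± 0.13 at 24 h (0.15 to 0.71, adjusted p = 0.078). The 24 h value passed without BaP 24 h replicate 2 (log2 0.59, edgeR adjusted p = 0.020) and at the depth of the shallowest library (0.54, adjusted p = 0.031).

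The estimated counts of ABCC1 were divided between transcripts differently in the BaP 24 h libraries. ENST00000349029 held 46.8% and 55.8% of the ABCC1 counts in BaP 24 h against 3.43% and 6.47% in vehicle 24 h. At 12 h the same transcript held 19.8% and 0.00% in BaP 12 h against 0.09% and 6.72% in vehicle 12 h, and the groups overlapped. ENST00000399410 held 52.5% and 43.4% in BaP 24 h against 86.1% and 92.0% in vehicle 24 h. Among 6837 genes tested for transcript usage with edgeR's gene-level F-test, 0.322% were called at 12 h and 0.848% at 24 h. Of the 6 pumps with more than 1 transcript to test, 0 were called at either time by the F-test or by Simes' method. At an unadjusted p under 0.05 there were 0 at 12 h and 1, ABCC1, at 24 h (edgeR F-test across all genes, adjusted p = 0.43), against 5.19% and 11.2% of the genes tested for usage. The F-test called 1 pump at 24 h when either of the BaP 24 h libraries was left out. How RSEM divides reads among transcripts that share most of their exons is uncertain, and the part of that in these shares was not tested.

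**Figure D3:**
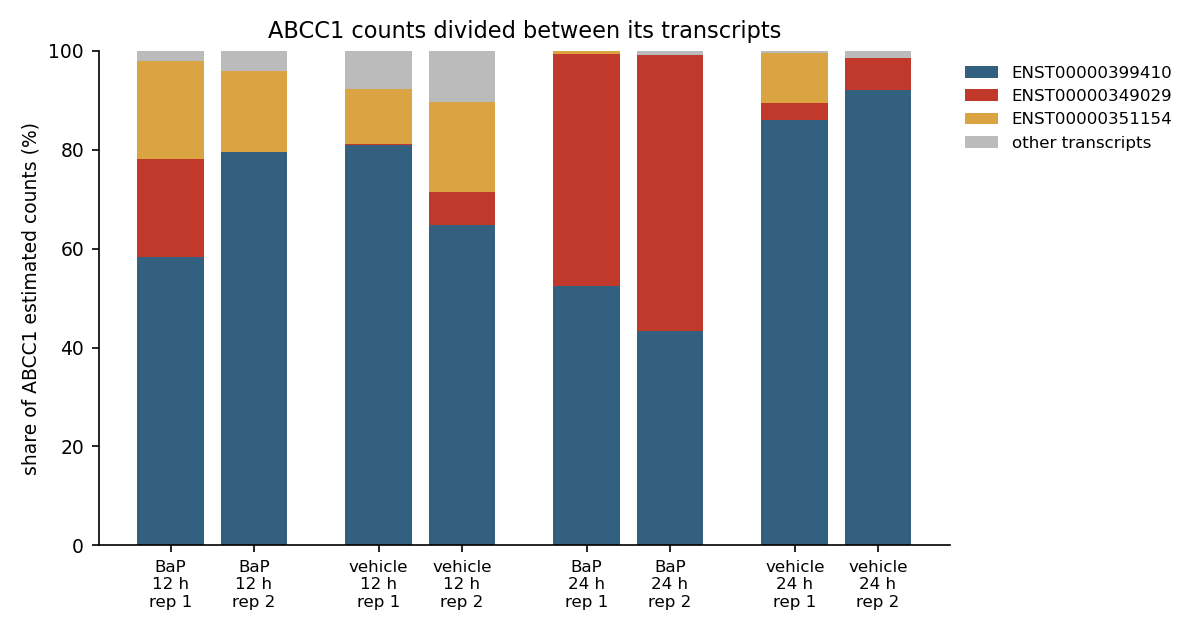
Share of the estimated ABCC1 counts assigned to each transcript, in percent, for every library. ENST00000349029 takes 46.8% and 55.8% in the BaP 24 h libraries and at most 19.8% in the other 6.

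ABCC4, or MRP4, is a basolateral pump for bile salts, cyclic nucleotides and sulfate conjugates. Its level was 6.97 and 6.31 CPM in BaP 12 h against 8.12 and 11.5 CPM in vehicle 12 h, and 7.50 and 6.22 CPM in BaP 24 h against 7.22 and 6.75 CPM in vehicle 24 h. The BaP libraries lay below the vehicle libraries at 12 h and on both sides of them at 24 h. The log2 fold change was -0.57 ± 0.21 at 12 h (95% interval -1.02 to -0.12, edgeR adjusted p = 0.13) and -0.10 ± 0.25 at 24 h (-0.62 to 0.43, adjusted p = 0.88). Without vehicle 12 h replicate 1 the 12 h value passed (log2 -0.80, edgeR adjusted p = 0.046).

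ABCC6, or MRP6, is a basolateral pump of hepatocytes that mediates ATP release, and its loss causes the calcification disorder pseudoxanthoma elasticum. Its level was 55.5 and 59.9 CPM in BaP 12 h against 93.4 and 78.7 CPM in vehicle 12 h, and 65.3 and 54.1 CPM in BaP 24 h against 94.2 and 79.7 CPM in vehicle 24 h. Every BaP library lay below every vehicle library. The log2 fold change was -0.58 ± 0.13 at 12 h (edgeR adjusted p = 0.011) and -0.58 ± 0.14 at 24 h (adjusted p = 0.022). At 12 h the call was lost without BaP 12 h replicate 1 (log2 -0.53, edgeR adjusted p = 0.17), BaP 12 h replicate 2 (-0.65, 0.068) or vehicle 12 h replicate 1 (-0.44, 0.13). At 24 h it was lost without BaP 24 h replicate 2 (log2 -0.43, edgeR adjusted p = 0.25), vehicle 24 h replicate 1 (-0.45, 0.30) or vehicle 24 h replicate 2 (-0.69, 0.053), and in a fit to the 4 libraries of that time (adjusted p = 0.075). It was lost at the depth of the shallowest library as well (adjusted p = 0.10). ABCC6 has near-identical pseudogene copies nearby, so its counts are uncertain. Its 2 tested transcripts, ENST00000456970 (annotated as nonsense-mediated decay) and ENST00000205557 (protein-coding), held 58.9% and 37.2% of them. ENST00000205557 averaged 25.2 CPM in BaP 12 h against 32.1 in vehicle 12 h, and 21.6 in BaP 24 h against 25.8 in vehicle 24 h. ENST00000456970 averaged 30.6 against 51.3 CPM at 12 h and 33.8 against 59.4 CPM at 24 h. The usage test did not call ABCC6 at either time.

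ABCB6 is a porphyrin transporter of the outer mitochondrial membrane and of other membranes, and differs from the other pumps in its place in the cell. Its level was 143 and 152 CPM in BaP 12 h against 91.2 and 84.8 CPM in vehicle 12 h, and 122 and 134 CPM in BaP 24 h against 72.1 and 68.3 CPM in vehicle 24 h. Every BaP library lay above every vehicle library. The rise was 0.75 ± 0.11 on the log2 scale at 12 h (edgeR adjusted p = 0.00034) and 0.87 ± 0.12 at 24 h (adjusted p = 0.00036). Both calls stood in all 11 alternatives, with log2 fold changes of 0.67 to 0.80 at 12 h and 0.79 to 0.92 at 24 h. In GENCODE 29 another gene on the same strand, AC068946.2, shares 54.7% of the exonic bases of ABCB6. Reads from the shared exons cannot be told apart by position. The division between ABCB6 transcripts varied within a group. In BaP 24 h, the protein-coding ENST00000265316 held 63.0% and 21.3% of the ABCB6 counts. ENST00000443805, annotated as nonsense-mediated decay, held 12.4% and 33.7% in the same libraries.

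Corrected for transcript length, as TPM from RSEM's fractions, ABCB6 and ABCC2 had the highest levels in each group, and their medians over the 8 libraries of both treatments were 73.0 and 60.8. ABCC3 (38.8), ABCB1 (34.6), ABCC1 (30.0) and ABCC6 (17.3) followed in median level. ABCB4 (5.06), ABCC4 (2.41) and ABCG2 (2.37) were the lowest of the detected pumps. The order of neighbours changed between groups. ABCB6 averaged above ABCC2 in 3 groups, but in vehicle 24 h ABCC2 averaged 53.1 and ABCB6 48.1 TPM. ABCB1 averaged 51.7 and ABCC3 43.5 TPM in BaP 12 h, the reverse of the other 3 groups. ABCG2 averaged 3.07 and ABCC4 1.54 TPM in BaP 24 h, against 1.61 and 3.46 TPM in vehicle 12 h. Over all 8 libraries the ranges of every pair of neighbours in this order overlapped. They only just did so for ABCC1 (23.1 to 43.1) and ABCC6 (12.2 to 23.2), and for ABCC6 and ABCB4 (3.14 to 12.4). Summed over the pumps, the level was 347 and 345 TPM in BaP 12 h against 238 and 214 in vehicle 12 h, and 348 and 321 in BaP 24 h against 226 and 210 in vehicle 24 h. These sums did not overlap between BaP and vehicle at either time. ABCC2 made up 20.8% to 28.2% of the sum in the 4 BaP libraries and 18.1% to 26.2% in the 4 vehicle libraries. ABCB6 made up 25.2% to 36.3% of it with BaP and 21.6% to 24.5% with vehicle. In CPM, which are not corrected for length, the median of ABCB6 was 107, below ABCC2 (323) and ABCC1 (174).

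The level of ABCB4 in TPM moved with its transcripts. ENST00000453593 held 72.1% of the ABCB4 counts in BaP 24 h replicate 1 and 66.0% in vehicle 24 h replicate 2, where ABCB4 stood at 9.42 and 12.4 TPM. It held none in the other library of each of these groups, where ABCB4 stood at 5.70 and 5.83. ABCB4 had 602 estimated counts over all libraries, and these shares rest on few of them.

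**Figure D4:**
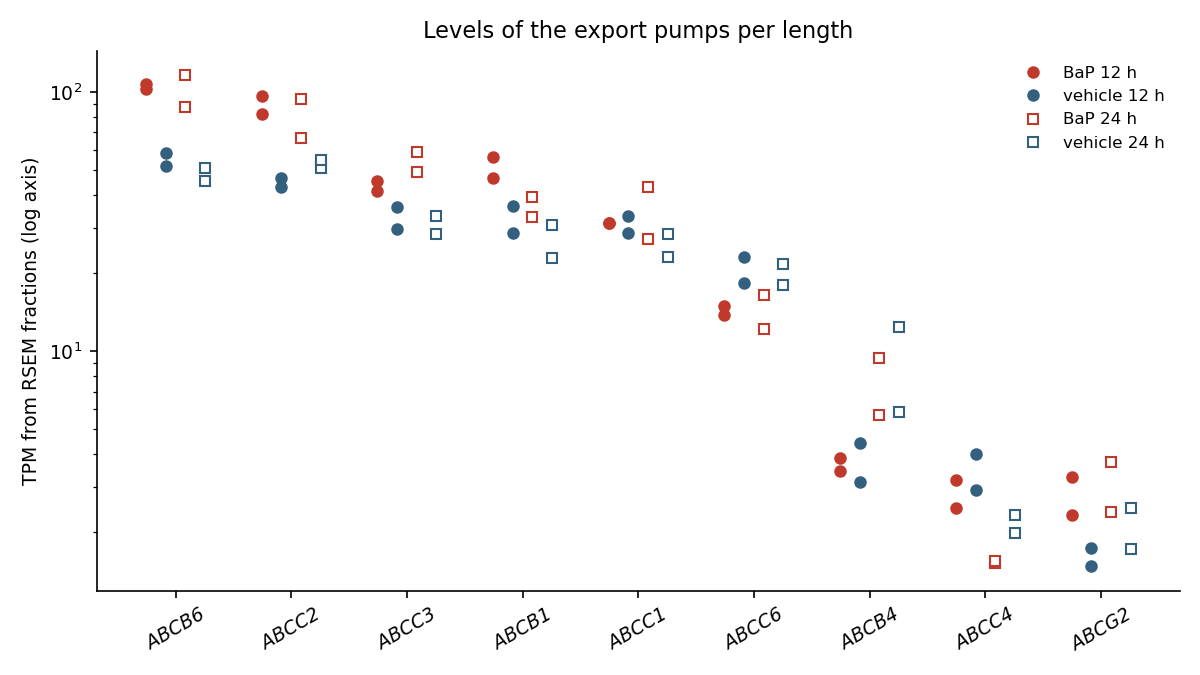
Length-corrected level of each detected pump in every library, in TPM on a log axis, ordered by median. BaP libraries (red) and vehicle libraries (blue) are shown at 12 h (filled) and 24 h (open), and the medians run from 73.0 for ABCB6 to 2.37 for ABCG2.

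Differences in the BaP effect between 24 h and 12 h were tested as an interaction over all 8 libraries, and 0.543% of all genes tested were called (0.461% higher, 0.0814% lower). Of the 9 pumps, edgeR's quasi-likelihood test called 0 and DESeq2 called 0. At an unadjusted p under 0.05 there were 2 of the 9, against 9.51% of all genes tested. These were ABCC3, given above, and ABCC1 (0.45 ± 0.19, 95% interval 0.06 to 0.85, edgeR adjusted p = 0.43). For the other 7 the log2 difference lay between -0.31 (ABCC2, 95% interval -0.71 to 0.10) and 0.47 (ABCC4, -0.22 to 1.17). The calls of ABCB1 at 12 h alone and of ABCC3 at 24 h alone are therefore not shown to differ between the times.

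Between the vehicle groups, 24 h against 12 h, edgeR called 3.28% of all genes tested (2.27% higher, 1.01% lower) and 0 of the 9 pumps. DESeq2 also called 0, but gave no adjusted p for ABCB4, ABCC4 and ABCG2. At an unadjusted p under 0.05 from edgeR there were 4 of the 9, against 16.4% of all genes tested. ABCB6 was at 70.2 ± 2.7 CPM in vehicle 24 h and 88.0 ± 4.5 CPM in vehicle 12 h (SD, n = 2 each), a log2 difference of -0.32 ± 0.11 (edgeR adjusted p = 0.15). The other 3 were ABCB1 (-0.27 ± 0.12), ABCC4 (-0.48 ± 0.22) and ABCC2 (0.30 ± 0.14), with edgeR adjusted p of 0.28 to 0.29.

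Genes with the most similar profile over the 8 libraries were found by Pearson's r of log2 CPM among the 7122 or 7123 other genes with a mean log2 CPM over 4. The libraries share the BaP contrast, so any gene that BaP moved resembles another, and no p is given. ABCB6 was nearest to BLCAP (r = 0.992), CYP1A1 (0.983) and the aldo-keto reductase gene AKR1B10 (0.982). ABCB1 was nearest to the glutathione reductase gene GSR (0.989), the thioredoxin reductase gene TXNRD1 (0.976) and ICOSLG (0.970). ABCG2 was nearest to the mitochondrial ribosomal RNA gene MT-RNR2 (0.991), EIF2S1 (0.967) and the aldo-keto reductase gene AKR1C1 (0.966). ABCC2 was nearest to the Notch ligand gene JAG1 (0.971), CRNKL1 (0.963) and ZFAND5 (0.961). For ABCC3 they were METTL7B (0.964), the cytochrome P450 gene CYP2S1 (0.957) and TEP1 (0.953), and for ABCC6 they were SUFU (0.980), PTK7 (0.979) and NOTUM (0.968).

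The pumps differ widely in genomic span, and in these data the BaP effect moved with span. A GENCODE 29 span was known for 13525 of the 14746 genes tested (91.7%). Over these the median log2 fold change at 12 h was 0.07 for genes of up to 30 kb, 0.01 for 30 to 100 kb, -0.09 for 100 to 200 kb, -0.29 for 200 to 300 kb and -0.65 above 300 kb. At 24 h the medians were 0.08, -0.03, -0.09, -0.12 and -0.24. ABCB6 spans 9.25 kb, the 3 genes ABCC3, ABCC2 and ABCC6 span 57.5 to 74.6 kb, and ABCB4 spans 78.7 kb. ABCG2 (141 kb), ABCC1 (193 kb), ABCB1 (210 kb) and ABCC4 (282 kb) are longer. ABCB1 rose at 12 h by 0.49 in a span class whose median was -0.29, and ABCC4 stood at -0.57 in the same class. The part of span in either value was not tested.

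Among the other ABC transporters, 2 of the 20 tested were called at 12 h (10%) and 1 at 24 h (5%). These shares were near the 8.25% and 5.30% of all genes tested. Of these 20, from a list of 30, TAP1, the peptide transporter of antigen presentation, rose at 12 h (0.76 ± 0.12), and ABCA1, which loads cholesterol onto lipoproteins, fell at 12 h (-0.56 ± 0.13) and 24 h (-0.58 ± 0.14). Their median log2 fold change was 0.03 at 12 h and -0.11 at 24 h. Of 4 ABC proteins without membrane domains, edgeR called 0 at either time.

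Regulators of the pump genes were mostly not called. The share called was 22.2% at 12 h and 5.56% at 24 h, against 8.25% and 5.30% of all genes tested. Of 18 tested of 19, the NFE2L2 inhibitor gene KEAP1 (0.76 ± 0.12) and CEBPB (0.49 ± 0.12) rose at 12 h, and the nuclear receptor genes RXRA (-0.60 ± 0.12) and PPARA (-0.48 ± 0.14) fell. At 24 h RXRA fell (-0.46 ± 0.13) and none rose. AHR itself was at -0.28 ± 0.16 at 12 h and -0.21 ± 0.16 at 24 h, and NFE2L2 at -0.0046 ± 0.12 and -0.36 ± 0.12, none of them called. NR1H4, the bile acid receptor gene, was at -0.41 ± 0.26 and -0.72 ± 0.31, also not called.

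Among uptake and other solute carriers, 10 of 14 were tested. Of these, 30% were called at 12 h and 10% at 24 h, against 8.25% and 5.30% of all genes tested. The organic cation carrier gene SLC22A3 fell at 12 h (-0.74 ± 0.16) and 24 h (-0.77 ± 0.19), and the organic anion carrier genes SLC22A7 (-1.03 ± 0.29) and SLCO2B1 (-0.90 ± 0.24) fell at 12 h. None of the carriers rose at either time. Of all genes tested 3.41% rose at 12 h and 3.11% at 24 h, and 10 carriers are too few to differ from such shares. Of the 15 tested of 16 genes for the canalicular scaffold and pump trafficking, 4 fell and 1 rose at 12 h. The share called in this list was 33.3% at 12 h and 20% at 24 h. The kinase gene PRKCA fell by 2.65 ± 0.13 on the log2 scale, the motor gene MYO5B by 1.31 ± 0.12, the scaffold gene PDZK1 by 1.06 ± 0.18 and the phospholipid flippase gene ATP8B1 by 0.92 ± 0.26. PRKCA and MYO5B, which span 508 and 372 kb, fell at 24 h by 0.66 ± 0.13 and 0.53 ± 0.12. The syntaxin gene STX3 rose at 12 h (0.56 ± 0.14) and 24 h (0.63 ± 0.16).

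Of 11 tested bile acid synthesis genes of 14, AKR1D1 fell at 12 h (-1.51 ± 0.34), and edgeR called 0 at 24 h. The shares called were 9.09% and 0%, against 8.25% and 5.30% of all genes tested. Of the 10 hepatocyte markers tested, 1 was called at each time (10%), against 8.25% and 5.30% of all genes tested. The median log2 fold change of these markers was -0.18 at 12 h and -0.33 at 24 h. Among the marker genes, APOB fell at 12 h (-0.81 ± 0.18) and 24 h (-0.75 ± 0.18) while ALB was not called (-0.18 ± 0.16 and -0.37 ± 0.17). SPP1, a biliary marker also made by tumour cells, rose at 12 h (0.70 ± 0.13) and 24 h (1.12 ± 0.13), and the other 3 biliary markers tested were not called. The share of biliary markers called was 25% at each time, against 8.25% and 5.30% of all genes tested.

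**Figure D5:**
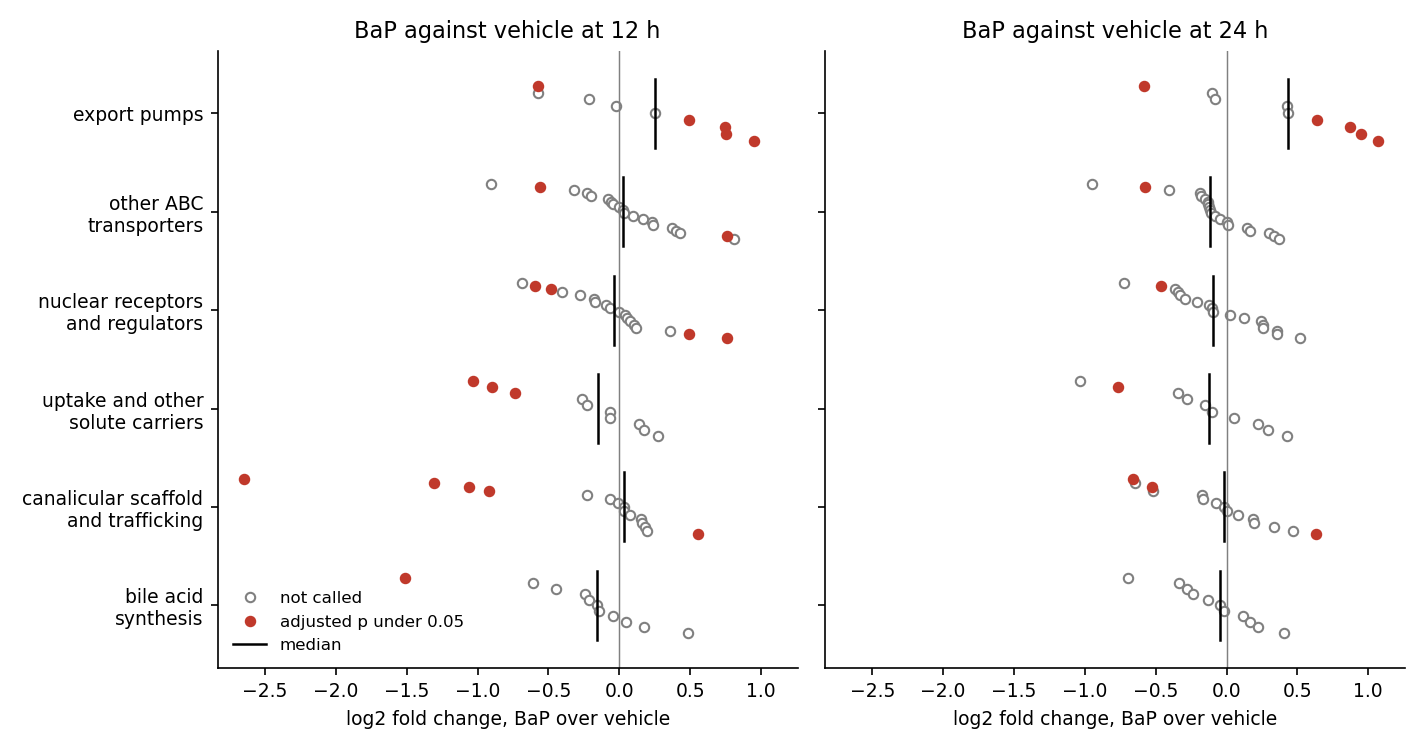
Log2 fold change, BaP over vehicle, of each tested gene of 6 lists at 12 h (left) and 24 h (right), filled where edgeR's adjusted p was under 0.05, with a bar at the median. The pumps' bar stands at 0.25 and 0.44, and the bars of the other 5 lists lie between -0.16 and 0.03.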

How the data were processed

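RNA-seq of 8 HepG2 libraries was analysed from 16 deposited files, 1 gene table and 1 transcript table for each library. Per the submitters' processing notes, reads were aligned with Bowtie 0.12.7 and quantified with RSEM 1.1.7, and edgeR was named without a version. The annotation was release 58 of Ensembl, per the file names, and the build of the genome was not given in the sources used here. The deposited estimated counts (RSEM's expected counts) are not normalised, and the deposited fractions are the authors' length-corrected shares of transcript molecules, scaled here to TPM. The authors' posterior mean counts served as an alternative. Because RSEM divides reads that match several transcripts, values of similar genes and transcripts depend on that division.

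Expected counts were rounded to whole numbers and analysed with edgeR 4.0.16 (R 4.3.3). Names were found for 40926 of 49733 gene IDs (82.3%) by Ensembl ID, with spans from GENCODE 29, and 2 of 138 list members had no ID. filterByExpr (minimum count 10, minimum total 15) kept 14746 genes. Scaling used edgeR's trimmed mean of M-values (TMM), and CPM use the scaled totals. A robust quasi-likelihood model with 1 mean per group was fitted to all 8 libraries, and two-sided p were adjusted by Benjamini and Hochberg over all genes. The SE is the fold change divided by the square root of F. Transcript usage was tested with edgeR's F-test on transcripts holding at least 10% of their gene's counts. The 95% intervals of fold changes are from the model. Total counts ranged from 2592272 to 16533490. The 2 libraries of a group come from independent experiments. The spread behind each p is pooled over the 4 groups and drawn toward that of other genes, so it is not the spread within 1 group alone.

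Alternatives were DESeq2's size factors, the Wald test of DESeq2 1.42.0, no filter, a replicate block, the libraries of a comparison alone, thinning to 2592234 counts (1 draw), posterior mean counts and leaving out each library, where the lone library of the group is assumed to vary like the other groups. The pumps and gene lists were chosen with earlier results of these data known. All 10 pumps are named, and up to 4 genes with the smallest p per list and the 3 most similar genes per called pump were eligible; AHR, NFE2L2, NR1H4, ALB and genes with too few counts were named after their values were seen. The tests were tried on simulated data.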

Additional observations from a re-analysis of the deposited data

How the results depend on the processing

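With BaP against vehicle, 4 pumps were higher and 1 lower at each time. At 12 h, 2 were higher after thinning to the shallowest library. At 24 h, 2 were higher and 0 lower in a fit to the 4 libraries of that time, and 0 lower after thinning. Without 1 library in turn, 2 to 3 were higher and 0 to 1 lower at 12 h, and 2 to 5 higher and 0 to 1 lower at 24 h. For the difference between times, 1 pump was higher with no filter, against 0. For transcript usage at 24 h, 0 to 1 pump was called without 1 library. DESeq2's size factors and posterior mean counts left 4 higher and 1 lower at both times.

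The labels do not say whether a replicate number marks a shared experiment. The main fit therefore did not treat the numbers as a pairing. Same-numbered libraries correlated in their deviations from the group means at 0.42 between BaP 12 h and vehicle 12 h, the groups compared at 12 h. Between the other pairs of groups this was -0.24 to 0.064 (7299 genes). The replicate block uses a common term for all groups, so it cannot show what pairing the 12 h libraries alone would do. With the replicate block, 4 pumps were higher and 1 lower at each time, and 1229 genes in all were called at 12 h (1216 without the block) and 738 at 24 h (782 without it).

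No called fold change reversed its sign in any alternative run. Values that were not called reversed as follows. Leaving out 1 library at a time, ABCC1 ranged from -0.14 to 0.077 at 12 h, and at 24 h ABCB4 ranged from -0.26 to 0.054 and ABCC4 from -0.18 to 0.090. In the difference between times, ABCB1 ranged from -0.13 to 0.054, ABCB4 from -0.044 to 0.27 and ABCC6 from -0.14 to 0.15. In vehicle over time, ABCC3 ranged from -0.24 to 0.12, ABCC6 from -0.12 to 0.15 and ABCG2 from -0.40 to 0.14. Thinning gave ABCC4 0.25 at 24 h, ABCB4 -0.045, ABCC6 0.17 and ABCG2 -0.19 in the difference, and ABCC6 -0.11 and ABCG2 0.17 in vehicle over time. The replicate block gave ABCC6 0.0060 in the difference, and no filter gave ABCC6 -0.0093 in vehicle over time. The cause was not tested.

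Over all genes at 12 h, against 1216 called, DESeq2 called 794, thinning left 599, and leaving out 1 library gave 424 to 883. At 24 h, against 782, no filter gave 1238, the 4 libraries alone 379 and thinning 373. Leaving out 1 library at 24 h gave 169 to 1956, the highest without the shallow BaP 24 h replicate 1. For the difference, against 80, no filter gave 240, and leaving out 1 library 28 to 348. For vehicle over time, against 483, no filter gave 805, its 4 libraries alone 853, thinning 270 and leaving out 1 library 87 to 232. The fit to part of the libraries was not run for the difference, which uses all 8. With 2 libraries per group and 1 shallow library, low transcripts such as ABCG2 and ABCC4 have wide intervals.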
